A study of Homo sapiens with 4 samples.

Results

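Mitosis, kinetochore and spindle genes were examined in LM2 cells depleted of hnRNPM, a splicing regulator that binds RNA. The list holds 53 genes that act from mitotic entry to cytokinesis. They were chosen by name, though with earlier results of these data known. All 53 were found among the 36525 genes of the deposited table, and all 53 reached the mean level of 1 RPKM (read counts divided by transcript length and read total) required for testing, as did 13627 genes in all. LM2 is a lung metastatic derivative of the human breast cancer line MDA-MB-231, described as a clonal line. Both groups were LM2 cells seeded at 1.6 M per 10 cm plate in DMEM with 10% serum and collected 48 h after plating. The control group had 2 libraries and was labelled only as control. The knockdown group also had 2 libraries, and the labels name its silencing agent both as an shRNA and as an siRNA. Whether a group's libraries were grown as separate cultures is not stated, so the p-values reflect the spread among these 4 samples alone, and that spread may be technical.

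HNRNPM itself read 88.6 and 102 RPKM in controls against 11.5 and 12.95 RPKM after knockdown (−2.91 ± 0.17 on the log2 scale, limma adjusted p = 1.48e-59), so the target was low in both knockdown libraries. VIM, a mesenchymal intermediate filament gene, was at 562 to 760 RPKM over the 4 libraries. CD44 was at 51.1 to 71.9 RPKM and FN1 at 47.4 to 64.4 RPKM. ESR1, the estrogen receptor gene, did not exceed 0.0322 RPKM, and PGR, the progesterone receptor gene, was listed at 0 in all 4. ERBB2, another receptor gene, was not near 0, at 7.19 to 9.13 RPKM with overlapping groups. PCNA, a proliferation marker gene, was not found by symbol. CDH1, the epithelial cadherin gene, was low in all libraries but moved with the knockdown: it was at 0.0774 and 0.0629 RPKM in controls and 0.717 and 0.9905 RPKM after it (20 and 16 against 131 and 181 estimated reads), under the mean level for testing. EPCAM, another epithelial gene, was at 0.9098 to 1.25 RPKM, with overlapping groups, and the part of these markers in the results was not tested. Estimated reads per library, from the steps of the low values, ranged from 23.0 M to 26.5 M for controls and from 16.5 M to 18.3 M after knockdown. Among the mitosis genes, the estimate per gene and library had a median of 2776 reads and a minimum of 152, for SPC25 in knockdown library 1.

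Dividing cells enter mitosis when cyclin B and cyclin A activate the kinase CDK1. Kinetochores, protein assemblies on the centromeres, then bind spindle microtubules, and the spindle checkpoint delays anaphase until every kinetochore is attached. Many of the genes are transcribed mainly in G2 and mitosis, through promoters that carry CHR elements and CCAAT boxes, which are bound by the MuvB complexes with MYBL2 or FOXM1 and by NF-Y.

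All 53 genes were detected in every library, with control means from 1.72 RPKM (HMMR, a spindle-associated microtubule protein) to 91.6 RPKM (CCNB1, cyclin B1). The log2 fold change, knockdown minus control mean of log2(RPKM + 0.5), was below 0 for 43 of the 53 genes, against 56.2% of all genes tested. Their median was −0.27, against −0.07 over all genes tested. In limma with Benjamini-Hochberg adjustment over all genes and a threshold of 0.05, 15 genes fell, 2 rose and 36 did not pass. Among all genes tested, 21.8% fell and 14.7% rose. Of the mitosis genes 28.3% fell, near that share in these unscaled values, and 3.77% rose. In both knockdown libraries the level was below both control libraries for 36 mitosis genes (67.9%), against 38.8% of all genes tested. It was above both for 3, against 28.0%. In bulk RNA, fewer cells in mitosis and less RNA per cell cannot be told apart.

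The libraries of a group differed by a factor shared by most genes, and it bears on these counts. All 53 genes were higher in control library 2 than in control library 1, by a median ratio of 1.16, and all 53 were higher in knockdown library 2 than in knockdown library 1, by 1.12. Over all genes tested the median ratios were 1.15 and 1.11. Dividing each library by its median ratio to the others removes a shared factor, and the median SE of a log2 fold change over all genes was then 0.0544, against 0.1755 before. In limma on the scaled values 34 mitosis genes fell and 8 rose, against 30.0% and 31.1% of all genes tested, and their median was −0.19, with 40 of 53 below 0, against 49.7% of all genes tested. All 15 genes that fell and both that rose in the unscaled values kept their calls, 19 more fell and 6 more rose. Higher calls made up 40.3% of all calls in the unscaled and 50.9% in the scaled values, and 11.8% and 19.0% of the calls among mitosis genes. A fit that leaves out a library has 1 library in an arm, which is assumed to vary like the other group. In such fits of the unscaled values, the genes that fell numbered 3 without control replicate 1 and 1 without any other library, and the genes that rose numbered 0 without knockdown replicate 2 and 1 otherwise. Of the 17 calls, 13 were lost in each of these 4 fits, with adjusted p from 0.0524 to 0.572.

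**Figure D1:**
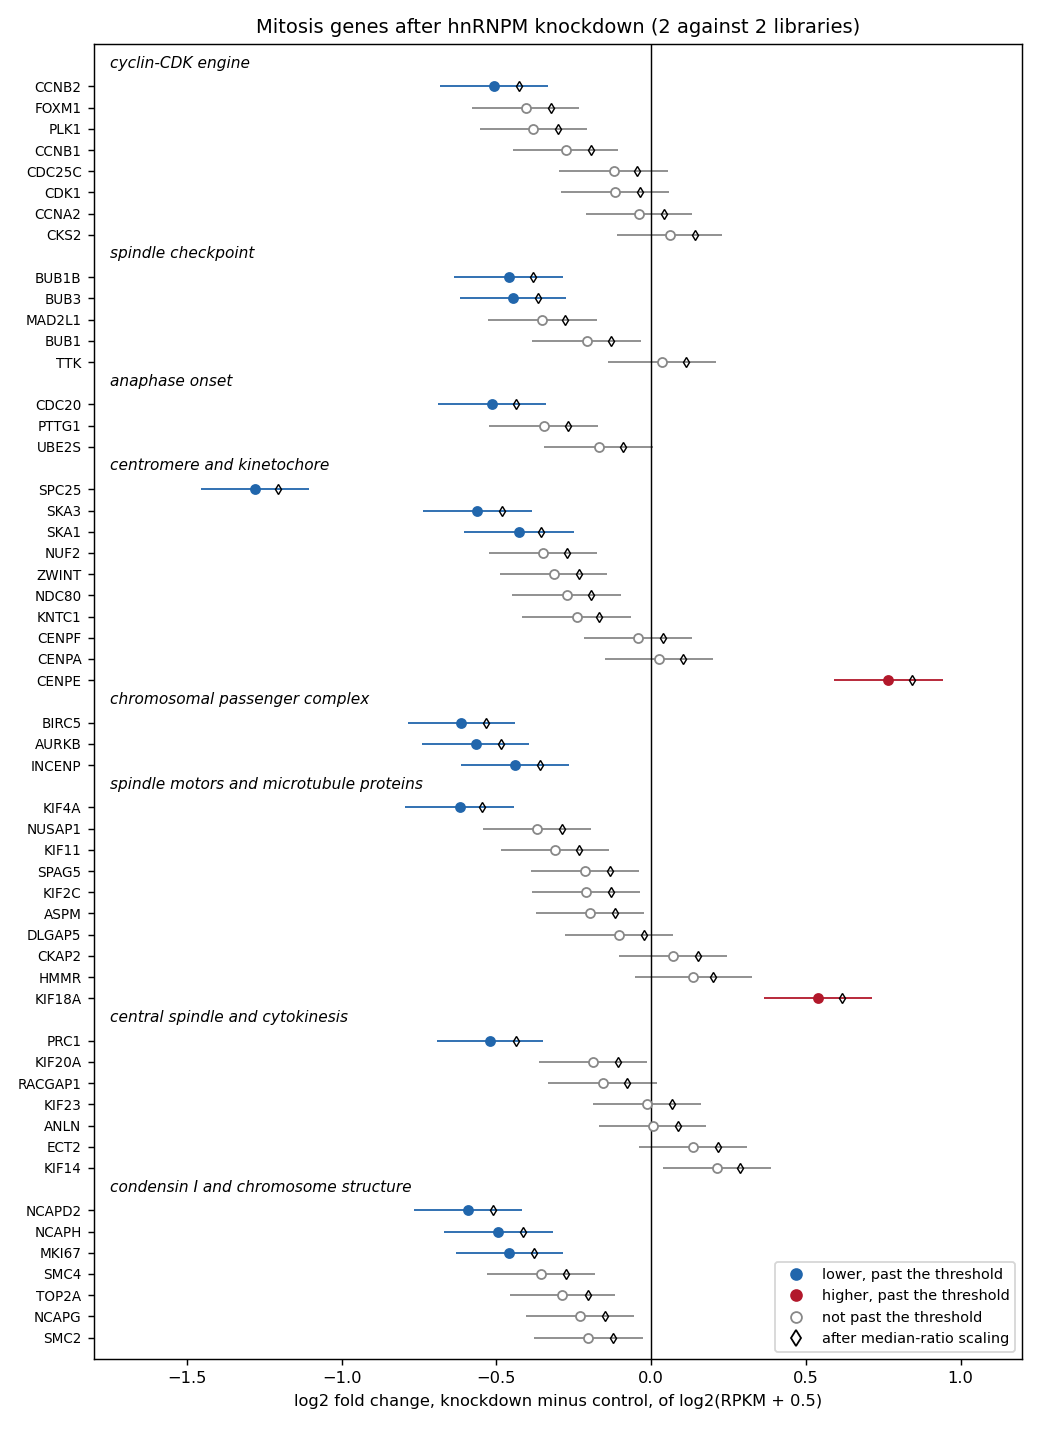
Log2 fold change (knockdown minus control, log2(RPKM + 0.5), x axis) of each of the 53 genes, grouped by role; circles are the unscaled values with their SE as bars, filled where limma passed the threshold, and diamonds are the median-ratio scaled values. SPC25 has the lowest value (−1.28) and CENPE the highest (0.77), and the diamonds lie to the right of the circles throughout.

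The promoters of these genes share short motifs. The genes were chosen for roles in mitosis, and many such genes are known to carry CHR elements and CCAAT boxes. The motif shares are thus not independent of the choice of genes. RefSeq windows from 250 bases before to 50 bases after the start (build GRCh38.p14) were matched by symbol for 47 of the 53 genes, and 8 of these had several windows. BIRC5, BUB3, FOXM1, KNTC1, RACGAP1 and TTK had no entry. A CHR element (TTTGAA or TTCGAA, both strands) was found for 37 of the 47 genes, against 15.4% of the tested genes with a window and 16.4% of all 35116 windows. The CCAAT box (CCAAT, both strands) was found for 34 of 47, against 43.9% of tested genes. Both motifs together were found for 27, against 6.61% of tested genes. The E2F-like motif (TTTGGCGC or TTTCGCGC, both strands) was found for 2, against 2.52%. None of these motifs is contained in another. Within the 60 bases before the start, 18 of the 47 genes held a CHR element, against 2.88% of all windows.

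The 130 bases before the RefSeq start are shown for 8 genes that passed the test. These are 6 of the 13 genes with a window that fell and then the 2 that rose. The 6 were picked by name, so they need not be typical of the 13. Of the genes that fell and are not shown, INCENP and MKI67 have a CHR element within the 130 bases. NCAPD2, SKA1 and SKA3 have theirs outside these bases or across the start, and AURKB and NCAPH have none. The sequences set their motifs side by side. Each is written 5′ to 3′ on the strand of its gene, and capitals mark matches to the CHR element and the CCAAT box on either strand.
SPC25 (chr2:168890431-168890560, minus strand): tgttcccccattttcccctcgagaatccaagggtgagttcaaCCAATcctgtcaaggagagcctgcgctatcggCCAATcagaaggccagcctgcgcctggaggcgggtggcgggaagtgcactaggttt
CCNB2 (chr15:59105016-59105145, plus strand): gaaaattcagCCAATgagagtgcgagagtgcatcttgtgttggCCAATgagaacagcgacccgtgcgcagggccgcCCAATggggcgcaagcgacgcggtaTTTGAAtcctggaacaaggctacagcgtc
CDC20 (chr1:43358851-43358980, plus strand): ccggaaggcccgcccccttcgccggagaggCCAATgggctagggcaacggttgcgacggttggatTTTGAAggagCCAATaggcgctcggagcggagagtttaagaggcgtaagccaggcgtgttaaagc
BUB1B (chr15:40160939-40161068, plus strand): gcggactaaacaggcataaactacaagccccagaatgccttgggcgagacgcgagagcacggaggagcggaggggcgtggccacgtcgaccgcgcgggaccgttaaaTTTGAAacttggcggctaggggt
KIF4A (chrX:70289974-70290103, plus strand): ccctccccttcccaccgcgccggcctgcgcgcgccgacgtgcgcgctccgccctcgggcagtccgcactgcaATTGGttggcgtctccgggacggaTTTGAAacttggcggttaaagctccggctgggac
PRC1 (chr15:90994536-90994665, minus strand): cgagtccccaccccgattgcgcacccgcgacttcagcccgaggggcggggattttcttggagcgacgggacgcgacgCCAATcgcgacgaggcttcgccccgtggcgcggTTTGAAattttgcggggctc
KIF18A (chr11:28108157-28108286, minus strand): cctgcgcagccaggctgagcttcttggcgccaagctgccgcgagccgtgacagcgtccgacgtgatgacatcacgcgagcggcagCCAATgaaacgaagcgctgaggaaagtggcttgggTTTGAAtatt
CENPE (chr4:103198344-103198473, minus strand): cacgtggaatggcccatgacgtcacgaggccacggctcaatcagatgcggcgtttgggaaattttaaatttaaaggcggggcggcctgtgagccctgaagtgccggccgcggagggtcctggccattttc
CCNB2 has 3 CCAAT boxes followed by a CHR element, CDC20 has a CHR element between 2 CCAAT boxes, and KIF4A and PRC1 have 1 of each. BUB1B has a CHR element and no CCAAT box in these bases. In SPC25 only the 2 CCAAT boxes are marked, since its 2 CHR matches lie outside these bases, 1 of them across the start. KIF18A, which rose, has 1 of each motif like KIF4A and PRC1, and CENPE, which rose, has neither motif in these bases or in its whole window.

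Motif matches were found among genes that fell, rose or did not pass. The CHR element was found for 11 of the 13 genes with a window that fell, for 1 of the 2 that rose and for 25 of the 32 that did not pass. The 2 that fell without a CHR element, AURKB and NCAPH, are not among the sequences shown. Over all tested genes with a window, 22.5% of the 1231 with a CHR element fell, against 20.2% of the 6787 without one, and the median log2 fold changes were −0.10 and −0.07. With both a CHR element and a CCAAT box 25.1% fell, against 20.2% of the rest. With the E2F-like motif, present in 202 tested genes, 28.2% fell and 4.46% rose, against 20.3% and 13.2% of the rest. In the scaled values 46.0% of the genes with the E2F-like motif fell and 30.2% rose, against 33.9% and 35.6% of the rest. When scaled, 36.15% of the genes with a CHR element fell, against 33.9% of those without one. With both a CHR element and a CCAAT box 37.7% fell when scaled, against 34.0% of the rest. These are matches of letters and were given no test.

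**Figure D2:**
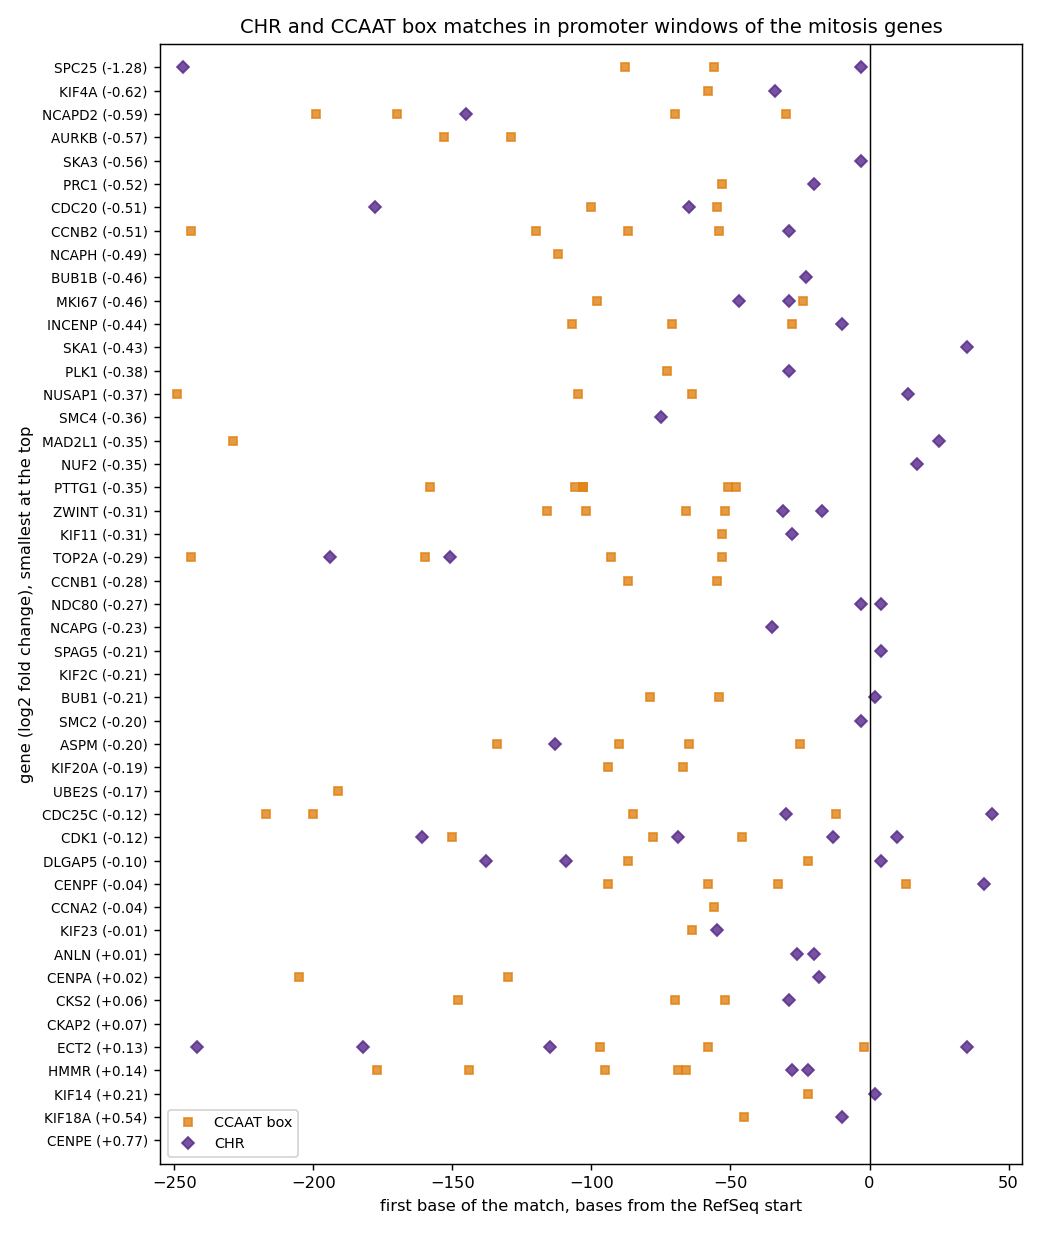
First base of each CHR (purple diamonds) and CCAAT box (orange squares) match, in bases from the RefSeq start (x axis), for the 47 genes with a window, ordered by log2 fold change from SPC25 at the top to CENPE at the bottom. CHR matches gather near the start in genes with low and with high fold changes alike, and the rows of CENPE, CKAP2 and KIF2C are empty.

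Counts by role are to be read against all genes tested, of which 21.8% fell and 14.7% rose unscaled. In the scaled values these shares were 30.0% and 31.1%. Of the 8 genes of the cyclin-CDK engine, CCNB2 fell and 7 did not pass. CCNB2, cyclin B2, was at 26.6 and 31.7 RPKM in controls against 19.1 and 21.6 RPKM after knockdown. Its groups did not overlap, and its log2 fold change, −0.51 ± 0.17 (SE), passed in limma (adjusted p = 0.0128). CCNB1, the main mitotic cyclin, was at 84.7 and 98.4 against 70.7 and 80.2 RPKM, a log2 fold change of −0.28 (adjusted p = 0.20). FOXM1, a transcription factor of the G2/M program, lay just outside the threshold at 54.7 and 62.3 against 42.1 and 45.8 RPKM (−0.41, adjusted p = 0.0507), and PLK1, a kinase that drives mitotic entry and spindle assembly, was at 32.3 and 38.1 against 24.5 and 29.4 RPKM (−0.38, adjusted p = 0.0726). CCNB1, FOXM1 and PLK1 fell in the scaled values. CDK1, the kinase itself, was at 21.8 and 24.9 against 20.1 and 22.9 RPKM, and its libraries overlapped. CCNA2, cyclin A2, was at −0.04 on the log2 scale and at 0.04 after scaling. CDC25C, a phosphatase that activates CDK1, was at −0.12, and the CDK subunit gene CKS2 at 0.06; CKS2 rose in the scaled values.

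Among the 5 spindle checkpoint genes, 2 fell and 3 did not pass. BUB1B, which codes for the checkpoint protein BUBR1, was at 12.2 and 13.9 RPKM in controls against 8.83 and 9.85 RPKM after knockdown (−0.46 ± 0.18, limma adjusted p = 0.0269). BUB3, its binding partner, was at 54.5 and 62.8 against 40.8 and 44.8 RPKM (−0.45 ± 0.17, limma adjusted p = 0.0294). Both genes thus had knockdown libraries below both controls. Both calls were lost with empirical Bayes without a variance trend. MAD2L1, which inhibits CDC20 at unattached kinetochores, was at 3.96 and 4.36 against 2.95 and 3.36 RPKM (−0.35, adjusted p = 0.109), and the kinase gene BUB1 was at −0.21; both fell in the scaled values. TTK, the kinase MPS1 at the top of the checkpoint, was at 6.85 and 7.86 against 7.26 and 7.80 RPKM, with overlapping libraries, and rose in the scaled values.

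Of the 3 genes of anaphase onset, CDC20 fell and 2 did not pass. CDC20, which activates the anaphase-promoting complex, was at 7.68 and 9.12 RPKM in controls against 5.44 and 5.99 RPKM after knockdown, a 1.47-fold lower mean (−0.51 ± 0.18, limma adjusted p = 0.012). Its call was kept without control replicate 1 (adjusted p = 0.04995) and lost in the other 3 fits that left out a library. PTTG1, securin, which holds separase inactive, was at 10.1 and 11.7 against 7.90 and 8.96 RPKM (−0.35, adjusted p = 0.109) and fell in the scaled values. UBE2S, a ubiquitin-conjugating enzyme of the same complex, was at 15.0 and 20.6 against 13.8 and 17.6 RPKM, and its libraries overlapped.

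The centromere and kinetochore genes held both the lowest and the highest fold change of the list: of 10, 3 fell, 1 rose and 6 did not pass. SPC25, a subunit of the NDC80 complex that binds microtubules, was at 7.16 and 8.42 RPKM in controls against 2.78 and 3.02 RPKM after knockdown. Its mean was 2.68-fold lower, from 7.79 ± 0.889 to 2.90 ± 0.168 RPKM (SD, n = 2), a log2 fold change of −1.28 ± 0.18 (SE; limma, adjusted p = 9.16e-12). SPC25 was the only mitosis gene whose call held in all 4 fits that left out a library (limma adjusted p from 9.43e-05 to 0.00888); it also held with a minimum fold of 1.5 and was lost without a filter on low values.

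The other subunits of the NDC80 complex were measured too. NDC80 was at 16.1 and 18.9 against 13.6 and 15.2 RPKM (−0.27, adjusted p = 0.221) and NUF2 at 11.2 and 12.6 against 8.90 and 9.57 RPKM (−0.35, adjusted p = 0.107). Neither passed in the unscaled values, and both fell in the scaled values. SPC24, the partner of SPC25, is not on the list of 53; it fell from 8.97 and 10.0 to 5.44 and 5.51 RPKM (−0.74 ± 0.18, limma adjusted p = 0.000163).

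CENPE, a kinesin that carries chromosomes to the spindle equator, rose. It was at 3.96 and 4.61 RPKM in controls against 7.22 and 8.04 RPKM after knockdown, means of 4.28 ± 0.458 and 7.63 ± 0.578 RPKM (SD, n = 2). The log2 fold change of 0.77 ± 0.18 (SE) passed in limma (adjusted p = 9.24e-05). The call was lost without knockdown replicate 2, with a minimum fold of 1.5 and without a filter on low values. CENPF, a large protein of the outer kinetochore that also peaks in G2 and mitosis, was at 20.7 and 24.04 against 20.9 and 22.3 RPKM, with overlapping libraries. CENPA, the centromeric histone H3 variant, was at 10.7 and 11.1 against 10.4 and 11.8 RPKM.

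The SKA complex, which couples kinetochores to shrinking microtubules, had both listed subunits lower. SKA3 fell from 14.8 and 17.3 to 10.1 and 11.3 RPKM (−0.56 ± 0.18, limma adjusted p = 0.00559), and SKA1 from 4.26 and 5.11 to 2.99 and 3.73 RPKM (−0.43 ± 0.18, limma adjusted p = 0.0437). SKA1 lay close to the threshold and its call was lost with empirical Bayes without a trend. ZWINT was at −0.31 and KNTC1, which belongs to the complex that recruits dynein to kinetochores, at −0.24; neither passed, and both fell in the scaled values.

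All 3 listed genes of the chromosomal passenger complex fell, against 21.8% of all genes tested. This complex carries the kinase Aurora B to centromeres and later to the central spindle. AURKB, the kinase, was at 47.2 and 55.3 RPKM in controls against 33.4 and 35.2 RPKM after knockdown (−0.57 ± 0.17, limma adjusted p = 0.0045). BIRC5, survivin, was at 49.3 and 57.0 against 32.1 and 36.9 RPKM, a 1.54-fold lower mean (−0.61 ± 0.17, limma adjusted p = 0.00192). INCENP, the scaffold that activates Aurora B, was at 16.1 and 18.0 against 11.9 and 13.0 RPKM (−0.44 ± 0.18, limma adjusted p = 0.0358). In each of the 3 genes both knockdown libraries lay below both controls, as in 38.8% of all genes tested. The calls were lost whenever a library was left out, and that of INCENP also without a variance trend.

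**Figure D3:**
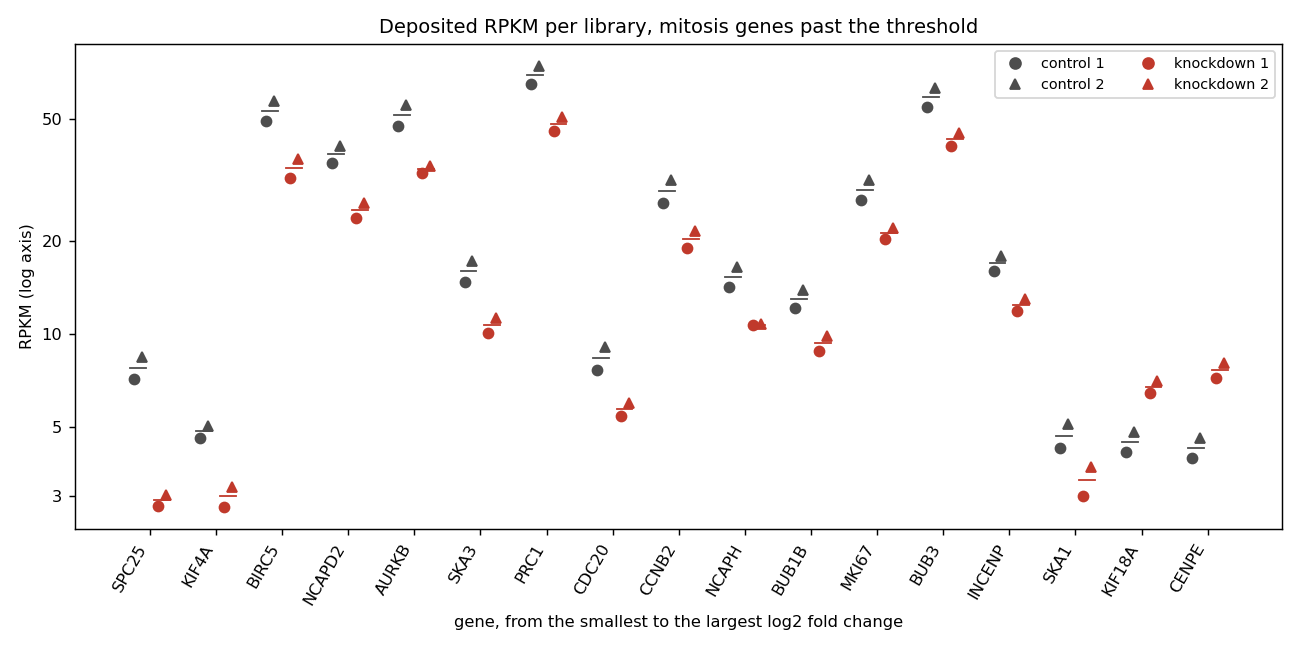
Deposited RPKM (log y axis) of the 17 mitosis genes past the threshold in each library (control grey, knockdown red; circles library 1, triangles library 2; lines are group means). SPC25 falls from 7.16 and 8.42 to 2.78 and 3.02 RPKM, KIF18A and CENPE are the only genes with red above grey, and library 2 lies above library 1 in every group.

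Spindle motors and microtubule proteins went both ways: of 10, KIF4A fell, KIF18A rose and 8 did not pass. KIF4A, a chromokinesin that limits spindle length, was at 4.62 and 5.05 RPKM in controls against 2.76 and 3.21 RPKM after knockdown, a 1.62-fold lower mean (−0.62 ± 0.18, limma adjusted p = 0.00222). Its call was kept without control replicate 1 (adjusted p = 0.03997) and lost in the other 3 fits that left out a library. KIF18A, a kinesin that dampens chromosome movements at the spindle equator, was at 4.16 and 4.81 against 6.44 and 7.03 RPKM (0.54 ± 0.18, limma adjusted p = 0.00802). Its 2 knockdown libraries lay above both controls, as in 28.0% of all genes tested. The call of KIF18A was lost whenever a library was left out, with a minimum fold of 1.5 and without a filter on low values. KIF11, the motor that separates the spindle poles, was at 15.7 and 18.9 against 12.8 and 14.9 RPKM (−0.31, adjusted p = 0.155) and NUSAP1, a microtubule-bundling protein, at 37.5 and 41.3 against 28.9 and 31.9 RPKM (−0.37, adjusted p = 0.0828). KIF2C (−0.21), SPAG5 (−0.21), ASPM (−0.20) and DLGAP5 (−0.10) did not pass, nor did CKAP2 (0.07) and HMMR (0.14). In the scaled values KIF11, KIF2C, NUSAP1 and SPAG5 fell and CKAP2 rose.

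Of the 7 genes of the central spindle and cytokinesis, PRC1 fell and 6 did not pass. PRC1, which bundles antiparallel microtubules at the midzone, was at 64.5 and 74.1 RPKM in controls against 45.7 and 50.6 RPKM after knockdown (−0.52 ± 0.17, limma adjusted p = 0.00943). The midzone kinesin genes KIF20A and KIF23 were at −0.19 and −0.01, and KIF23 was at 0.07 in the scaled values. ANLN, which codes for the contractile ring scaffold anillin, was at 39.0 and 44.9 against 39.7 and 44.5 RPKM, so its libraries overlapped. ECT2, which activates RhoA at the cleavage site, was at 19.0 and 22.3 against 21.9 and 23.5 RPKM (0.13), its partner RACGAP1 was at −0.16, and the kinesin gene KIF14 was at 5.72 and 6.79 against 6.99 and 7.63 RPKM (0.21, adjusted p = 0.361). In the scaled values ANLN, ECT2 and KIF14 rose and KIF20A and PRC1 fell. The median of these 7 genes was −0.01, and 0.07 in the scaled values.

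Condensin I and chromosome structure genes all had log2 fold changes below 0, as had 56.2% of all genes tested. Of 7, 3 fell and 4 did not pass, against 21.8% of all genes that fell. All 7 fell in the scaled values, against 30.0% of all genes. Condensin I compacts mitotic chromosomes. Its subunit NCAPD2 fell from 35.9 and 40.7 to 23.8 and 26.7 RPKM (−0.59 ± 0.17, limma adjusted p = 0.003) and NCAPH from 14.2 and 16.5 to 10.7 and 10.8 RPKM (−0.49 ± 0.18, limma adjusted p = 0.0167). Its other subunits did not pass: NCAPG was at 14.1 and 16.2 against 12.1 and 13.6 RPKM, SMC2 at 16.0 and 18.1 against 13.9 and 15.6 RPKM, and SMC4 at 23.996 and 28.1 against 19.6 and 20.8 RPKM. Knockdown libraries lay below both controls in each of the 5 subunits, as in 38.8% of all genes tested. MKI67, the proliferation marker Ki-67 that coats mitotic chromosomes, fell from 27.2 and 31.6 to 20.3 and 22.2 RPKM (−0.46 ± 0.17, limma adjusted p = 0.027), a call lost without a variance trend. TOP2A, the topoisomerase that untangles sister chromatids, was at 82.0 and 94.5 against 67.6 and 76.8 RPKM (−0.29, adjusted p = 0.181).

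Ratios of genes within a library do not hold a factor shared by all its genes. The CENPE to CENPF ratio was 0.192 in both controls and 0.345 and 0.36 after knockdown, 1.84 times as high. CCNB2 to CCNB1 was 0.314 and 0.322 in controls against 0.2696 and 0.269 after knockdown. The NCAPG to NCAPH ratio went from 0.994 and 0.982 to 1.14 and 1.26, a mean ratio 1.21 times that of the controls. MKI67 to TOP2A went from 0.332 and 0.335 to 0.3004 and 0.289. CCNB1 to CDK1 went from 3.88 and 3.96 to 3.52 and 3.503.

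The next 3 pairs had the smallest changes of the mean ratio. BUB1B to BUB3 was 0.223 and 0.222 in controls against 0.216 and 0.2198 after knockdown, a change of the mean ratio to 0.979 of the control. NDC80 to NUF2 was 1.44 and 1.501 against 1.53 and 1.59, and SKA1 to SKA3 was 0.288 and 0.295 against 0.297 and 0.329. Pairs with SPC25 or KIF18A were chosen after their values were seen. SPC25 to NDC80 was 0.443 and 0.445 in controls against 0.205 and 0.199 after knockdown, and SPC25 to SPC24 went from 0.798 and 0.838 to 0.512 and 0.549. KIF18A to KIF4A went from 0.899 and 0.951 to 2.34 and 2.19. With 2 against 2 libraries an exact permutation test cannot give a two-sided p below 0.333, so the ratios were given no test.

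**Figure D4:**
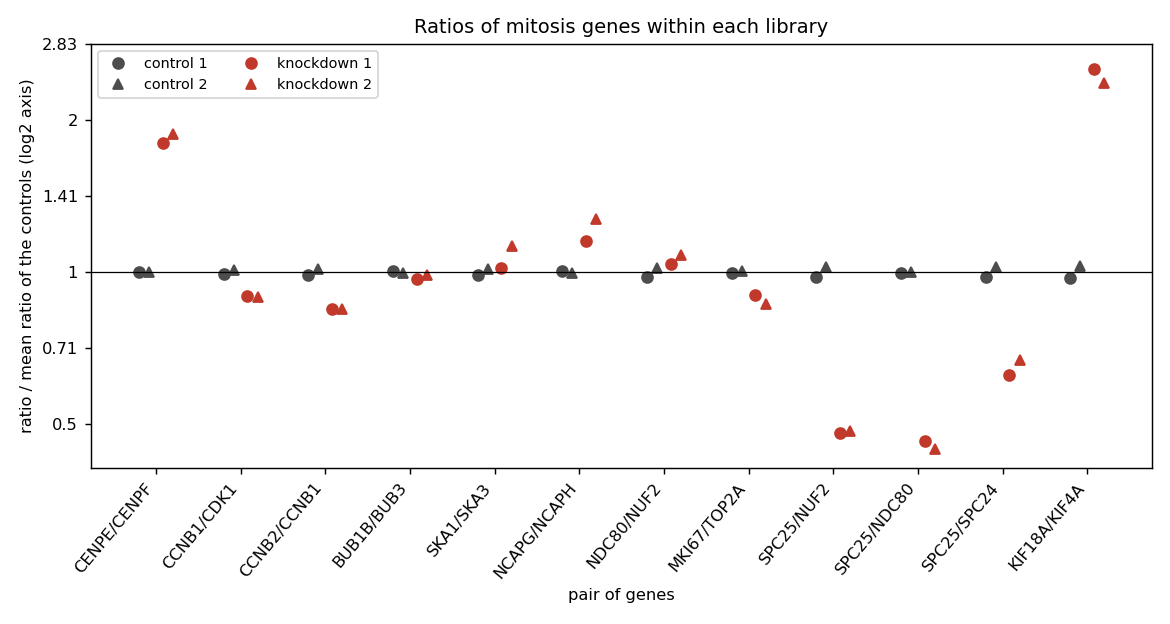
Ratio of 2 genes within each library, divided by the mean ratio of the controls (log2 y axis), for 12 pairs (control grey, knockdown red; circles library 1, triangles library 2). CENPE/CENPF stands at 1.84 times and SPC25/NDC80 at 0.454 times the control mean, while BUB1B/BUB3 stays near 1. The knockdown libraries of NCAPG/NCAPH and SKA1/SKA3 lie further apart than their controls. In SKA1/SKA3 knockdown library 1 lies next to control library 2.

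Length and level were weakly related to the fold changes. Across the 53 genes, Spearman's rho of log2 fold change with exon length was 0.18 and with mean level −0.11; across all tested genes these were 0.02 (12395 genes with a length) and 0.07. The genes share 4 libraries, so these are descriptions. Of the 53 genes, 22 share exon bases with another annotated gene, among them BUB1B, KIF4A, NCAPD2 and PRC1 of those that fell and KIF18A of those that rose. Since no source used here states whether counting used strand, reads in shared bases cannot be assigned. PRC1-AS1, antisense to PRC1, was itself listed at 36.9 to 59.8 RPKM, lower after knockdown, and the readthrough gene BUB1B-PAK6 at 4.37 and 4.94 against 2.64 and 2.825 RPKM. MAD2L1 has a processed copy, MAD2L1P1, at 1.16 to 1.76 RPKM over a shorter exon length (618 against 5748 bases). The copy had 21 to 33 estimated reads per library, against 501 to 1048 for MAD2L1. How reads matching both were counted is not known, so the level of MAD2L1 remains uncertain.

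Genes of the same processes outside the list were counted in lists chosen by function, each to be read against all genes tested, of which 21.8% fell and 14.7% rose unscaled and 30.0% and 31.1% scaled. In the inner kinetochore and centromere list, 7 of 18 fell and 0 rose, and 8 and 0 when scaled. CENPW was 2.33-fold and CENPQ 1.90-fold lower. Of 18 outer kinetochore and checkpoint genes 8 fell and 1 rose, and 11 and 3 when scaled. The gene that rose was MAD2L1BP, whose product removes MAD2 from CDC20, at 12.8 and 14.9 against 19.6 and 21.0 RPKM (0.54, limma adjusted p = 0.00828). ZWILCH, which forms a complex with KNTC1, fell from 8.47 and 9.37 to 2.16 and 2.42 RPKM (−1.76 ± 0.18, limma adjusted p = 1.77e-21). Of 27 spindle and centrosome genes 11 fell and 0 rose, and 16 and 4 when scaled; BORA, an activator of Aurora A and through it of PLK1, was 2.27-fold lower. In condensin II and chromosome structure 3 of 9 fell and 0 rose, and 7 and 0 when scaled, with the histone chaperone gene ANP32E 5.87-fold and NCAPD3 1.67-fold lower. In cytokinesis 4 of 13 fell and 0 rose, near the share of all genes, and 5 and 2 when scaled, with DEPDC1B 1.68-fold lower.

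In several lists scaling changed the balance of calls. Cohesin, which holds sister chromatids together, had 1 of 15 lower (SMC1A, 3.39-fold) and 1 higher (the acetyltransferase gene ESCO1, 0.54), and 5 lower and 6 higher when scaled. The anaphase-promoting complex had 2 of 16 lower (ANAPC15, −0.49, and ANAPC5, −0.47) and 0 higher, and 5 lower and 6 higher when scaled. Among 13 genes of mitotic entry control 3 fell and 1 rose, and 7 and 5 when scaled. BORA, 1 of the 3 that fell, is also counted among the spindle and centrosome genes. PKMYT1, a kinase that inhibits CDK1, was 1.99-fold lower, and WEE1, another such kinase, rose from 4.61 and 5.44 to 7.34 and 8.21 RPKM (0.58 ± 0.18, limma adjusted p = 0.00377). Of 10 genes of the MuvB and MYBL2 list, RBL2 fell (−0.49) and MYBL1 rose (0.49), and 2 fell and 4 rose when scaled. Of 44 DNA replication genes 25 fell and 0 rose (median −0.51), and 35 and 3 when scaled. Of 19 G1/S control genes 9 fell and 3 rose, and 10 and 7 when scaled. Those with the smallest p were the cyclin D kinase gene CDK6, which rose (1.22), and E2F8 (−1.23), E2F2 (−1.06) and SKP2 (−0.84), which fell. The other genes that rose were CDKN1B (0.82), a CDK inhibitor gene, and CCND3 (0.46), cyclin D3, while the CDK inhibitor genes CDKN1A (−0.56) and CDKN2C (−0.45) fell. Differences between the lists were not tested.

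**Figure D5:**
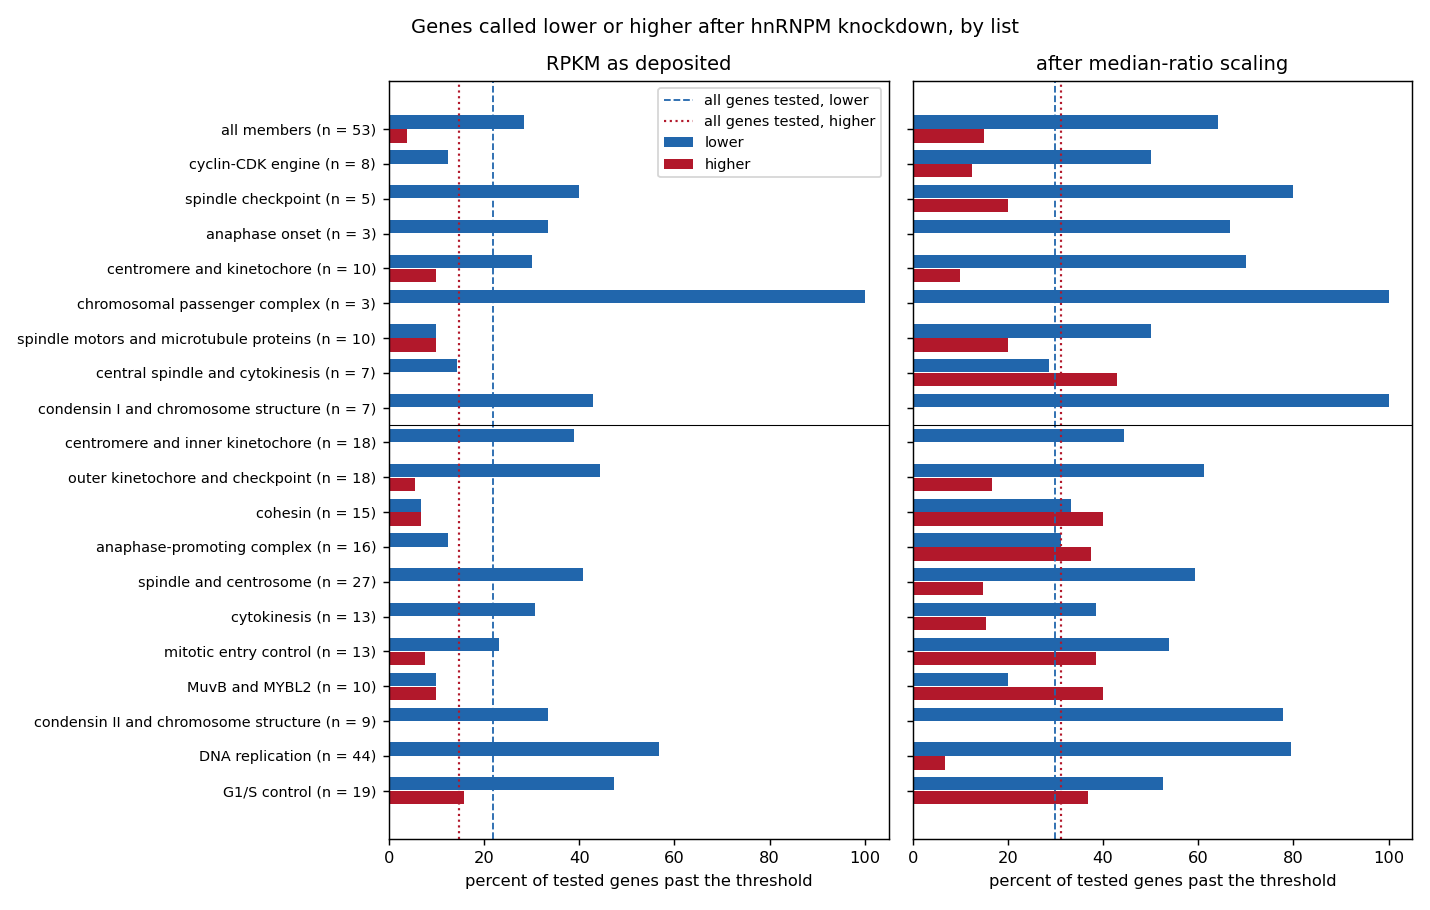
Percent of tested genes that fell (blue) or rose (red) in each role group of the 53 genes (above the line) and in the other lists (below it), unscaled at left and median-ratio scaled at right; dashed and dotted lines are the shares of all genes tested. All members stand at 28.3% lower at left, near the 21.8% of all genes, and at 64.2% at right, where all genes stand at 30.0%.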

How the data were processed

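RNA sequencing libraries of LM2 cells were analysed from 1 table of RPKM values deposited by the authors, with 1 column per library (2 control, 2 knockdown) and 36525 Ensembl genes. Per the submitters' processing notes, Bowtie 0.12.7 and build hg19 were used; no source used here gives the program that counted reads or its treatment of strand and multiple matches. Columns left unused numbered 0. Current symbols named 32172 genes and GENCODE 29 another 136, which also gave exon lengths; coordinates are printed only for RefSeq promoter windows. Steps of the low values corresponded to 1 read total per group (41.86 M control, 29.59 M knockdown), so a difference in depth within a group may remain in the RPKM.

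Values were tested as log2(RPKM + 0.5) where the mean RPKM was 1 or more (13627 genes), using limma 3.58.1 under R 4.3.3 (group alone, variance trend, Benjamini-Hochberg over all genes, threshold 0.05, two-sided). limma found no spread of variance beyond its trend, so small p-values rest on a shared variance. The script was tested on simulated data. The members, lists, tests and alternatives were chosen with earlier results of these data known. Every member past the threshold is named, and in other lists up to 4 genes with the smallest p among those past it were eligible. MAD2L1BP, CDKN1A, CDKN1B, CDKN2C and CCND3 fall outside this rule and were named after their values were seen. Alternatives were 2 other scalings, pseudocounts of 0.1 and 1, no filter, a mean RPKM of at least 5, no trend, a minimum fold of 1.5, protein-coding genes alone, a replicate block and leaving out each library.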

Additional observations from a re-analysis of the deposited data

How the results depend on the processing

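The counts depended on the scaling, the filter and the number of libraries. Genes that rose among all tested were 2000 in the reported fit, 4235 with median-ratio scaling, 3696 with scaling to the same RPKM sum, 551 without a filter, 1047 at a mean RPKM of at least 5, 360 with a minimum fold of 1.5 and 759 to 1158 when a library was left out. Genes that fell were 2964 in the reported fit, 4638 with the same sum (4083 with median-ratio scaling), 668 without a filter, 1321 at a mean RPKM of at least 5, 479 with a minimum fold of 1.5 and 1057 to 2007 when a library was left out. Of the 53 mitosis genes, 8 rose and 34 fell with median-ratio scaling, 4 rose and 38 fell with the same sum, 0 rose and 0 fell without a filter, 0 rose and 1 fell with a minimum fold of 1.5, and 0 to 1 rose and 1 to 3 fell when a library was left out. Without a filter, limma gave no mitosis gene an adjusted p below 0.0561, while 20 had an unadjusted p under 0.05; genes at very low levels then enter the estimate of the variance. The other alternatives kept both member counts within 1.5 times, except the replicate block.

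With the replicate number of the titles as a block, 3109 genes rose and 4318 fell over all genes, and 2 mitosis genes rose and 34 fell. Same-numbered libraries had deviations from their group means that correlated at 0.03 over 13627 genes. A correlation over genes does not see a shift shared by all genes, such as library 2 above library 1 in both groups. It therefore cannot decide whether the numbers pair the libraries, and the block was kept as an alternative. The median of the mitosis genes stayed below 0 in every alternative run, from −0.38 without control replicate 1 to −0.16 without control replicate 2.

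Among the mitosis genes that did not pass, 9 changed sign. With median-ratio scaling CCNA2 was at 0.0416, CENPF at 0.03698 and KIF23 at 0.0674, and with the same sum KIF23 was at 0.00909. Over the fits with a library left out, log2 fold changes ranged from −0.154 to 0.0745 for CCNA2, −0.0149 to 0.135 for CKS2, −0.0593 to 0.128 for TTK, −0.393 to 0.0535 for UBE2S, −0.0631 to 0.112 for CENPA, −0.1502 to 0.0633 for CENPF, −0.0573 to 0.1995 for CKAP2, −0.105 to 0.0800 for KIF23 and −0.0958 to 0.106 for ANLN. The median of the central spindle and cytokinesis genes was 0.0674 with median-ratio scaling, 0.00909 with the same sum and −0.105 to 0.0800 with a library left out, and that of the anaphase-promoting complex −0.204 to 0.0529. At a mean RPKM of at least 5, mitotic entry control turned to a median of 0.0148 and the MuvB and MYBL2 list to 0.170. The higher filter leaves the log2 fold change of a gene as it was and removes genes of lower level from these medians. The cause of the other changes was not tested. Precision is limited by 2 libraries per group and, for SPC25, by as few as 152 estimated reads.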
